A study of Mus musculus with 6 samples.

Results

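The regulators of G-protein signalling described here are 9 genes of the mouse Rgs family, Rgs1, Rgs2, Rgs3, Rgs10, Rgs12, Rgs14, Rgs16, Rgs18 and Rgs19, taken as the rows of the deposited count table that carry these symbols. Of the 41921 rows of the table, 8 matched by symbol. No row is named Rgs3, and a row without a symbol whose deposited description is the mouse RGS3 protein (chromosome 4, 63778017 to 63827953) is given apart from the rest as the Rgs3-described row. The genes were chosen with values of this same comparison known, so their differences between the groups are given as a description, without p-values.

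RNA was sequenced from RAW264.7, a mouse monocyte and macrophage line, wild type in genotype, which can be driven towards bone-resorbing osteoclasts by the cytokine RANKL. The 3 libraries labelled albiflorin, a monoterpene glycoside of peony root, held 15200418, 13708041 and 14311565 counted reads, and the 3 libraries labelled RANKL held 13673284, 15489482 and 14663862. The protocol of all 6 names RANKL at 50 ng/mL on cells 3 days past confluence; whether the albiflorin cells received it too is not stated apart from that, the labels give no dose or time for albiflorin, and no untreated cells were analysed here. The labels do not say that libraries of a group came from separate cultures, so the spread between them may be technical, and the model is a single cell line.

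Receptors coupled to heterotrimeric G proteins make the alpha subunit exchange GDP for GTP, which frees it and the beta-gamma pair to act on adenylyl cyclases, phospholipase C and ion channels. RGS proteins bind the GTP-loaded alpha subunit through a shared RGS domain and speed up GTP hydrolysis, so that the signal ends sooner. In macrophages and osteoclast precursors such receptors sense chemokines, prostaglandins, nucleotides and acid, and in mice Rgs10, Rgs12 and Rgs18 have each been tied to osteoclast formation.

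Of the 8 symbol-matched genes, 7 had enough reads to be tested, and Rgs18 did not. Rgs1, Rgs10 and Rgs19 were higher in albiflorin libraries than in RANKL libraries by the edgeR quasi-likelihood test (Benjamini-Hochberg adjusted p under 0.05 over 13158 genes), and the 3 albiflorin libraries lay above the 3 RANKL libraries for each of them. None of the 7 was called lower. Rgs2, Rgs12, Rgs14 and Rgs16 were not called in either direction. Over all tested genes, 12.4% were called higher and 11.4% lower, 20.8% had every albiflorin library above every RANKL library and 19.3% had every one below. The median log2 fold change, albiflorin over RANKL, was 0.24 over the 7 genes and 0.01 over all tested genes; since these genes were picked from this comparison, nothing is read from either contrast. Bulk RNA cannot tell a change in the number of expressing cells from a change in RNA per cell.

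**Figure D1:**
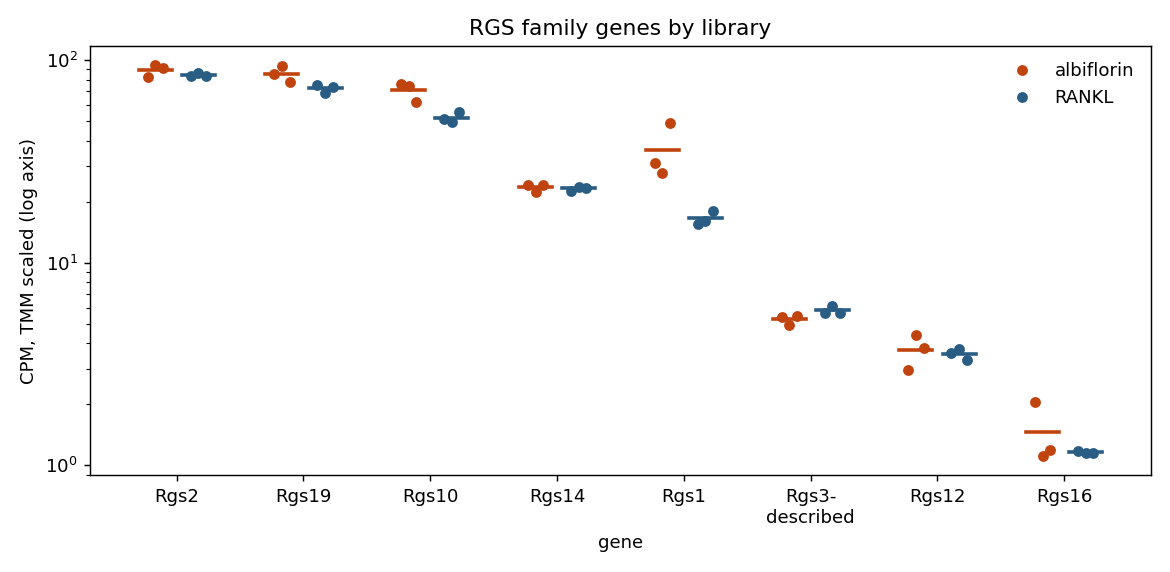
Normalised read counts (CPM, read counts scaled to TMM-adjusted library size, log axis) of the 7 tested Rgs genes and the Rgs3-described row; each point is 1 library, the bar is the mean of 3, and albiflorin stands left of RANKL. Rgs1 shows the widest gap, with albiflorin libraries between 27.8 and 48.8 CPM and RANKL libraries between 15.6 and 17.9 CPM; Rgs18 had too few reads to be drawn.

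Rgs1, a small RGS protein that damps chemokine receptor signalling in B cells and other leukocytes, had the largest difference of the family. It is annotated on the minus strand of chromosome 1, 153615504 to 153622449 in the coordinates of the deposited table. Its counts were 472, 374 and 694 in albiflorin libraries and 212, 253 and 266 in RANKL libraries. Scaled to TMM-adjusted library size (CPM) these were 31.1, 27.8 and 48.8 CPM with albiflorin, against 15.6, 16.1 and 17.9 CPM with RANKL. The groups did not overlap, and albiflorin library 3 was well above the other albiflorin libraries. The means were 35.9 ± 11.3 CPM for albiflorin and 16.5 ± 1.2 CPM for RANKL (SD, n = 3 each), a log2 fold change of 1.12 ± 0.16 (SE). Of the 13158 tested genes, 39 had a larger increase, a rank that is description alone, since the members were picked from this comparison. Rgs1 was called higher in all 16 alternative analyses, and its log2 fold change was smallest, at 0.83, without albiflorin library 3. On the log2 CPM scale the SD between albiflorin libraries was 0.43 and that between RANKL libraries 0.11, against medians of 0.11 and 0.10 over all tested genes.

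The 3′ untranslated region (3′ UTR) of Rgs1 in the GENCODE M21 annotation of GRCm38 is 3006 bases long and holds 1 copy of TATTTAT, the core of AU-rich elements, through which many short-lived mRNAs are bound by decay factors. That copy is shown because Rgs1 had the largest difference, beside 2 stretches of the Rgs16 3′ UTR, the one with the most copies among these genes. Capitals mark the core, and each stretch is 27 bases on the strand of the gene.
Rgs1 3′ UTR, chr1:144243183-144243209 (minus): aaatgtttatTATTTATtacttgaaga
Rgs16 3′ UTR, chr1:153745170-153745196 (plus): ctgctattgtTATTTATtgtggtttgt
Rgs16 3′ UTR, chr1:153745327-153745353 (plus): actgtgttaaTATTTATttattgttaa
The Rgs1 copy starts 2103 bases past the stop codon and also completes the longer form TTATTTATT. Of 2157 3′ UTRs of like length (at least 0.8 times as long and at most the inverse of that), 53.7% hold the core and 13.9% the longer form. Rgs16 has 3 copies in 1613 bases, the last of which overlaps the second stretch shown, and 3.33% of 3′ UTRs of like length hold as many. Rgs18 has 2 copies and the annotated Rgs3 has 1; Rgs2, Rgs10, Rgs12, Rgs14 and Rgs19 have none. These are matches to letters on the sense strand, and say nothing of whether a factor binds. Of the genes with a copy that could be tested by symbol, Rgs1 was called higher and Rgs16 was not called.

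The 5 genes whose log2 CPM followed that of Rgs1 most closely over the 6 libraries, among 10218 genes with a mean of at least 5 CPM, were Jun, Dgcr14, Socs3, Dusp1 and Tubd1. Jun, a subunit of the AP-1 transcription factor, had a Pearson r of 0.994 with Rgs1, and its levels were 98.1, 86.4 and 139 CPM in albiflorin libraries and 49.5, 46.7 and 52.6 CPM in RANKL libraries. Like Rgs1, Jun was highest in albiflorin library 3 and its groups did not overlap. Socs3, an inhibitor of cytokine receptor signalling, had an r of 0.988 and a log2 fold change of 0.73. Dusp1, a phosphatase that switches off MAP kinases, had an r of 0.983 and the larger log2 fold change of 2.45, with 35.4, 22.2 and 72.6 CPM for albiflorin and 9.17, 7.07 and 7.69 CPM for RANKL. Dgcr14 (r of 0.989) and Tubd1 (r of 0.981) were also higher in each albiflorin library than in any RANKL library, but by less, with log2 fold changes of 0.12 and 0.17. These correlations describe 6 libraries that fall into 2 groups and share their depth and preparation.

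**Figure D2:**
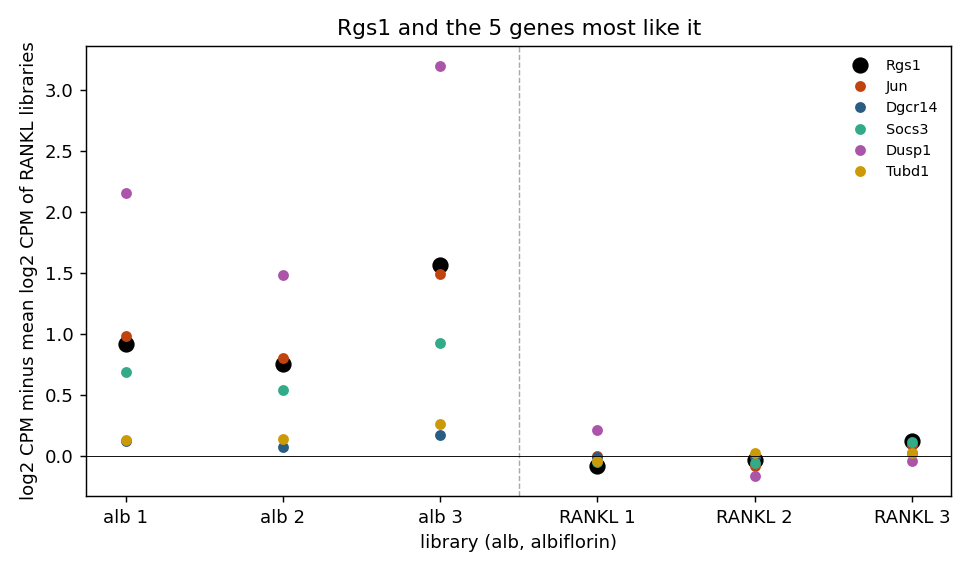
Log2 CPM of Rgs1 and the 5 genes most like it in each library, with the mean of the 3 RANKL libraries subtracted; albiflorin libraries (alb) stand on the left. Rgs1 and Jun lie close together in every library, Dusp1 moves further, and all 6 genes are highest in albiflorin library 3.

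Rgs10, which has the shortest mRNA of the members and is a regulator of inhibitory alpha subunits abundant in myeloid cells, was the second member called higher. It lies on the minus strand of chromosome 7, 137983127 to 138030455 in the deposited table. Its levels were 76.2, 74.6 and 62.1 CPM in albiflorin libraries and 51.5, 49.3 and 55.1 CPM in RANKL libraries. The lowest albiflorin library was above the highest RANKL library by less than the gap between albiflorin libraries 2 and 3. The means were 71.0 ± 7.75 CPM and 52.0 ± 2.93 CPM (albiflorin and RANKL, SD, n = 3 each), a log2 fold change of 0.45 ± 0.08 (SE). A same-strand transcript row, Gm15503, overlaps Rgs10 over 3374 bases but drew 39 reads in all 6 libraries together, against 3043 reads of Rgs10 in the albiflorin libraries and 2292 in the RANKL libraries.

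Rgs19, which acts on inhibitory alpha subunits and is anchored to membranes by palmitoylated cysteines, was the third member called higher. It lies on the minus strand of chromosome 2, 193749405 to 193754941. Its levels were 85.7, 93.4 and 77.6 CPM in albiflorin libraries and 75.5, 68.9 and 73.6 CPM in RANKL libraries. The groups did not overlap, although albiflorin library 3 and RANKL library 1 differed little. The means were 85.6 ± 7.90 CPM for albiflorin and 72.7 ± 3.42 CPM for RANKL (SD, n = 3 each), a log2 fold change of 0.24 ± 0.07 (SE). The Rgs19 call was kept in 7 of the 16 alternative analyses and was lost, for instance, without albiflorin library 2 (log2 fold change 0.17) and without RANKL library 2 (0.20).

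The length of an mRNA moved with the difference between the groups across all genes, and Rgs10 and Rgs19 are short. Tested genes with an mRNA under 1000 nucleotides had a median log2 fold change of 0.38 and 59.7% were called higher with albiflorin; among genes over 8000 nucleotides the median was -0.28 and 57.8% were called lower. The Rgs10 mRNA has 880 nucleotides, and 54.6% of 571 genes of like length were called higher, with a median log2 fold change of 0.34. For Rgs19, at 1511 nucleotides, 28.3% of 1550 such genes were called higher and the median was 0.18. Rgs1 differs from both in this respect. Its mRNA has 3841 nucleotides, and of 2826 genes of like length 3.68% were called higher and 11.7% lower, with a median of -0.06. When the trend of each library with mRNA length was removed, an analysis chosen after the data were seen, Rgs1 kept a log2 fold change of 1.17 and its call, whereas Rgs10 came to 0.09 and Rgs19 to 0.04, neither called. With the trend on the gene length listed in the deposited table removed instead, Rgs10 remained called and Rgs19 did not.

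**Figure D3:**
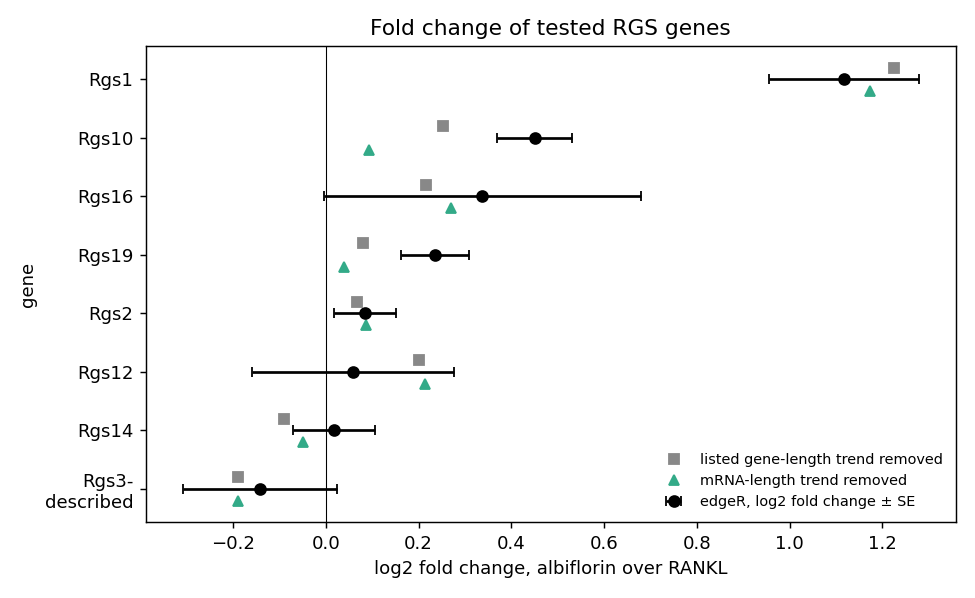
Log2 fold change, albiflorin over RANKL, of the 7 tested Rgs genes and the Rgs3-described row. Black points with bars are the edgeR value ± SE. Grey squares are the value with the listed gene-length trend removed and green triangles that with the mRNA-length trend removed. The Rgs3-described row has no mRNA length, so its triangle, like its square, uses the listed gene length. Rgs1 stays near 1.12 while Rgs10 moves from 0.45 to 0.09.

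Rgs2, which acts chiefly on Gq and is an early-response gene in many cells, was the most counted member and was not called. Its levels were 82.2, 94.1 and 91.5 CPM in albiflorin libraries and 83.0, 85.9 and 83.5 CPM in RANKL libraries. Albiflorin library 1 was the lowest of all 6, so the groups overlapped, and the log2 fold change was 0.08 ± 0.07 (SE). Rgs2 and Rgs1 lie in the same run of Rgs genes on chromosome 1, with Rgs13 between them. Between 153351420 and 154180022 of the deposited coordinates, a stretch of 828603 bases, the protein-coding rows are Rgs2, Rgs13, Rgs1, Rgs21 and Rgs18 and no other. Of these 5, Rgs2 and Rgs1 had enough reads to be tested, 259260 bases lie between them, and Rgs1 was called and Rgs2 was not.

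Promoters from RefSeq (GRCm38.p6, 250 bases before to 50 bases after the start site) were found for 6 members, namely Rgs2, Rgs3, Rgs10, Rgs12, Rgs16 and Rgs19. Those of Rgs2, a well expressed gene with overlapping groups, and Rgs10, a called one, are shown because their elements differ. The pair was picked for that and does not stand for uncalled and called members. Capitals mark matches on either strand to the cAMP response element core TGACG and to CCAAT, and the strand read is minus for both genes.
Rgs2 promoter, chr1:144004100-144004399 (minus): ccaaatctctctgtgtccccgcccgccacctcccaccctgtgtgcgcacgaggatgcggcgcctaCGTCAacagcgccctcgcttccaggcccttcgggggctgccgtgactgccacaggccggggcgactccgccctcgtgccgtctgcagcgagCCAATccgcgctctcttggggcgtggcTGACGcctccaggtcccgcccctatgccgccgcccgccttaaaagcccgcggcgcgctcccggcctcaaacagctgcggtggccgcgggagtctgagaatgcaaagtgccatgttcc
Rgs10 promoter, chr7:128418123-128418422 (minus): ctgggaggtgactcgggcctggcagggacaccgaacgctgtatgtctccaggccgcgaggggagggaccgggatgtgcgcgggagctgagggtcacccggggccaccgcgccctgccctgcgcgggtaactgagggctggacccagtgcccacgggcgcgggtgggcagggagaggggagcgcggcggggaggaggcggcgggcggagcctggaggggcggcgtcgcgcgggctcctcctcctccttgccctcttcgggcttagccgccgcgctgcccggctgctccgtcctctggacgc
The Rgs2 promoter holds 2 matches to TGACG, none to the full TGACGTCA that contains it, 1 to CCAAT and 4 to the GC box GGGCGG. The Rgs10 promoter holds 2 GC boxes and no match to TGACG or to CCAAT, to the TATA box TATAAA or to the AP-1 site TGANTCA. Searched on both strands of 32841 promoters of the same length, TGACG was found in 20.8%, TGACGTCA in 1.79%, CCAAT in 37.4%, GGGCGG in 35.7%, TATAAA in 13.6% and TGANTCA in 7.81%. The windows shown are rich in G and C, at 70.0% for Rgs2 and 76.0% for Rgs10. A match here is a run of letters and not a binding site.

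Rgs14, which carries a second alpha-binding motif and Ras-binding domains beside its RGS domain, was the steadiest member. Its levels were 24.1, 22.3 and 24.2 CPM in albiflorin libraries and 22.6, 23.7 and 23.4 CPM in RANKL libraries, a log2 fold change of 0.02 ± 0.09 (SE). Every RANKL value lay within the albiflorin range. Rgs12, a large relative of Rgs14 with further protein-binding domains, had 2.97, 4.39 and 3.80 CPM in albiflorin libraries and 3.60, 3.76 and 3.31 CPM in RANKL libraries. Its groups overlapped, and the log2 fold change of 0.06 ± 0.22 (SE) was smaller than its error. An annotated antisense row and a microRNA row overlap Rgs12, and both had 0 reads.

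Rgs16, an inducible regulator of Gi and Gq signalling in leukocytes, was near the limit of detection, with 31, 15 and 17 reads in albiflorin libraries and 16, 18 and 17 reads in RANKL libraries. One albiflorin library stood above the other 5, which were alike, and the log2 fold change of 0.34 ± 0.34 (SE) came to -0.01 without albiflorin library 1. The Rgs3-described row had 5.41, 4.91 and 5.48 CPM in albiflorin libraries and 5.65, 6.12 and 5.67 CPM in RANKL libraries. Each albiflorin value was below each RANKL value, but the log2 fold change of -0.14 ± 0.17 (SE) was not called. Rgs18, known from platelets and other blood cells, had 5, 1 and 2 reads in albiflorin libraries and 0, 2 and 0 reads in RANKL libraries, too few for a comparison; 3 reads amount to between 0.191 and 0.223 CPM in these libraries.

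Compared per length, with the FPKM values of the authors, Rgs19 and Rgs10 were the highest members in both groups. In albiflorin libraries the means were 41.9 ± 3.78 FPKM for Rgs19 and 41.2 ± 4.42 FPKM for Rgs10 (SD, n = 3), which overlapped. In RANKL libraries they were 35.7 ± 1.66 FPKM and 30.2 ± 1.68 FPKM (Rgs19 and Rgs10, SD, n = 3), which did not overlap. Rgs2 came next with 24.4 ± 1.72 FPKM in albiflorin libraries and 23.1 ± 0.44 FPKM in RANKL libraries, then Rgs14 with 9.38 ± 0.44 FPKM and 9.29 ± 0.23 FPKM and Rgs1 with 5.13 ± 1.63 FPKM and 2.37 ± 0.18 FPKM (albiflorin, then RANKL, SD, n = 3). Rgs16 and Rgs12 were below 1 FPKM in every library and overlapped each other in the albiflorin libraries. The listed length of Rgs1, 6946 bases, equals its whole genomic span, introns included, so its FPKM understates its level per mRNA length.

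Per kilobase of GENCODE mRNA the order at the top turned round. Rgs10 then averaged 80.7 ± 8.80 CPM per kilobase in albiflorin libraries and 59.1 ± 3.33 in RANKL libraries, above Rgs19 with 56.6 ± 5.23 in albiflorin libraries and 48.1 ± 2.26 in RANKL libraries (SD, n = 3). On this scale Rgs1 reached 9.35 ± 2.94 CPM per kilobase in albiflorin libraries, where it overlapped Rgs14 at 9.98 ± 0.45, and 4.31 ± 0.32 in RANKL libraries, where it lay below Rgs14 at 9.86 ± 0.24 (SD, n = 3). The order of Rgs10 and Rgs19 therefore rests on the length used. Below them the means of Rgs2, Rgs14 and Rgs1 followed in that order on both scales in both groups.

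**Figure D4:**
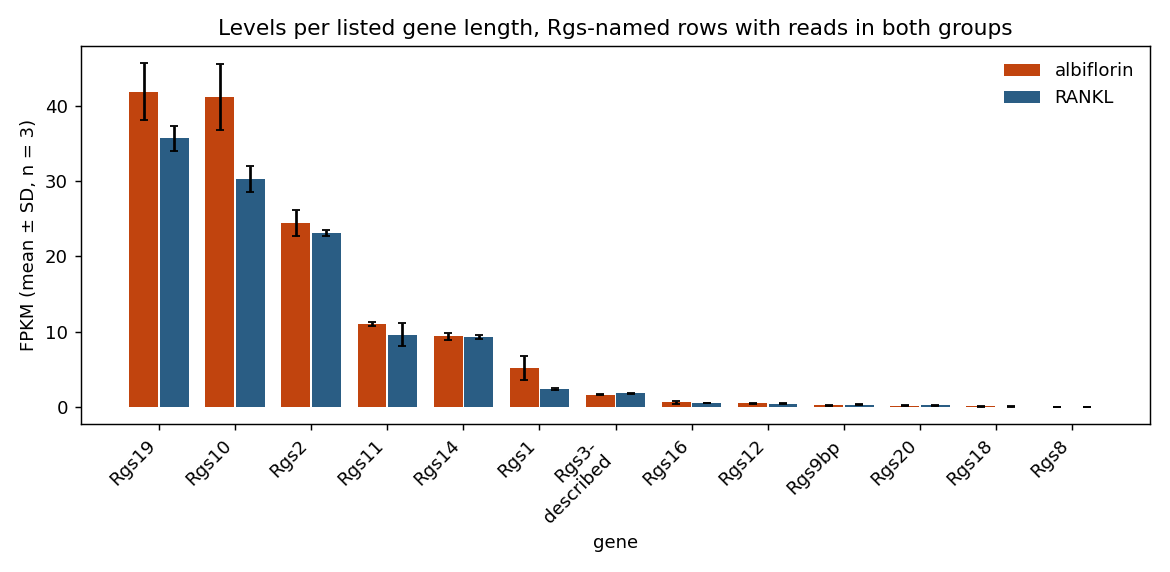
FPKM (per listed gene length, by the authors) of all Rgs-named rows with reads in both groups and of the Rgs3-described row, as mean ± SD of 3 libraries, albiflorin left of RANKL. Rgs19, Rgs10 and Rgs2 lead, and the means of Rgs19 are 41.9 FPKM for albiflorin and 35.7 FPKM for RANKL.

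Most of the rest of the family had few or no assigned reads. Whether reads of these genes were assigned to other rows was not tested. Of 14 other Rgs-named rows, 7 had 0 reads in all 6 libraries (Rgs4, Rgs6, Rgs7, Rgs13, Rgs17, Rgs21 and Rgs22), which allows up to 0.191 to 0.223 CPM in a library. Another 5 (Rgs20, Rgs8, Rgs7bp, Rgs9 and Rgs5) had between 1 and 35 reads in at least 1 group and were too low to test. Rgs11, which works in a complex with the beta subunit Gnb5, was the exception at 45.2, 47.2 and 47.5 CPM in albiflorin libraries and 34.9, 39.0 and 47.4 CPM in RANKL libraries. Its groups overlapped, with RANKL library 3 above albiflorin libraries 1 and 2, and its log2 fold change was 0.20 ± 0.10 (SE) with an edgeR adjusted p of 0.136. Rgs11 shares 4885 of its 8551 bases with the antisense gene Arhgdig, where reads of the 2 cannot be told apart without strand. Arhgdig itself was assigned 140 reads in albiflorin libraries and 125 in RANKL libraries, while Rgs11 was assigned 1997 in albiflorin libraries and 1791 in RANKL libraries. Rgs9bp, an anchor protein for Rgs9, had a log2 fold change of -0.35 ± 0.32 (SE) with an edgeR adjusted p of 0.460.

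The genes around the RGS proteins were described through lists of 162 genes, the 14 other Rgs-named rows included, of which 159 were found and 105 tested. The lists, too, were chosen with earlier results of these data known. Their shares, adjusted p-values and medians are therefore given as description. Of those 105, 6 (5.71%) were higher and 18 (17.1%) lower in albiflorin than in RANKL libraries, against 12.4% and 11.4% of all genes. With the mRNA-length trend removed, 4 of the 6 and 5 of the 18 were still called. Some genes outside the Rgs family carry an RGS domain, and of 12 such kinases, exchange factors and scaffolds tested, 2 fell and none rose. Arhgef12, an exchange factor driven by alpha subunits of the G12 class, fell to 62.6 ± 5.20 CPM in albiflorin libraries, against 84.2 ± 1.67 CPM in RANKL libraries (SD, n = 3 each), a log2 fold change of -0.43 (edgeR adjusted p 0.000728) that came to -0.13 and was no longer called with the length trend removed. Its relative Arhgef11 changed by -0.52 (edgeR adjusted p 0.00103) and by -0.31 with the trend removed, where it was still called. The receptor kinase Grk2, listed under its older symbol Adrbk1, was at 256 ± 5.56 CPM for albiflorin and 253 ± 6.34 CPM for RANKL (edgeR adjusted p 0.886).

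Among 10 tested alpha subunits, some of them substrates of RGS proteins, 1 was called. Gnaq, the Gq alpha subunit, fell to 171 ± 11.2 CPM in albiflorin libraries, against 213 ± 5.09 CPM in RANKL libraries (SD, n = 3 each), a log2 fold change of -0.31 (edgeR adjusted p 0.00249) that came to -0.15 and was not called with the length trend removed. The inhibitory subunits Gnai2 and Gnai3, which Rgs1, Rgs10 and Rgs19 act on, had log2 fold changes of 0.08 and -0.07 (edgeR adjusted p 0.388 and 0.455). Gnas, the stimulatory subunit, was at -0.24 (edgeR adjusted p 0.0578). Of 12 tested beta and gamma subunits, 3 rose and none fell. Gng5 rose by 0.57 on the log2 scale (edgeR adjusted p 0.000438), Gngt2 by 0.51 (0.00186) and Gnb2 by 0.25 (0.0101), and Gnb2 was not called with the length trend removed. Gnb1 was at -0.02 (edgeR adjusted p 0.848).

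Of 10 other tested regulators of G proteins, 2 rose and 1 fell. Arrb1, an arrestin that uncouples receptors from G proteins, fell to 215 ± 12.7 CPM in albiflorin libraries, against 285 ± 15.7 CPM in RANKL libraries (SD, n = 3 each), a log2 fold change of -0.40 (edgeR adjusted p 0.000698), and stayed called at -0.35 with the length trend removed. Gpsm3, which binds inhibitory alpha subunits in leukocytes, rose by 0.29 (edgeR adjusted p 0.00761) but came to 0.06 with the trend removed and was not called. Pdcl3, a phosducin-like chaperone, rose by 0.27 (edgeR adjusted p 0.0105), and was called in 5 of the 6 analyses that left out 1 library.

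Of 33 tested receptors, 5 fell. Lpar5, a lysophosphatidic acid receptor, changed by -0.56 (edgeR adjusted p 0.00309), Ptger1, a prostaglandin E2 receptor, by -0.28 (0.00533) and Adgre1, the adhesion receptor known as F4/80, by -0.30 (0.00933). Of these 3, Ptger1 was not called with the length trend removed. Ptger4, a prostaglandin E2 receptor coupled to Gs, was at 0.06 (edgeR adjusted p 0.769).

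Among 26 tested effectors of the cAMP and phospholipase C branches, 9 fell and none rose. The 3 receptors for inositol trisphosphate, which release calcium from the endoplasmic reticulum, all fell, with log2 fold changes of -0.46 for Itpr1, -0.33 for Itpr2 and -0.37 for Itpr3 (edgeR adjusted p 0.000722, 0.00293 and 0.00218). Plcb2, a phospholipase C that Gq and beta-gamma subunits activate, changed by -0.42 (edgeR adjusted p 0.000792). With the length trend removed Plcb2 alone of the 9 stayed called, at -0.28, and the Itpr genes came to -0.18, -0.08 and -0.11. Adcy7, the adenylyl cyclase most abundant in blood cells, changed by -0.20 (edgeR adjusted p 0.0404) and was called in 1 of the 6 analyses that left out 1 library. The median log2 fold change was -0.16 for this list, against 0.01 for all genes tested. Nothing is read from that contrast, since the list was chosen with earlier results known.

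Markers of the cell line and of other cell types were read in the same libraries. Summed over the 7 macrophage markers found, the level was 3827 to 4010 CPM in albiflorin libraries and 3759 to 4041 CPM in RANKL libraries. Cd14 was called higher and Adgre1 lower. Itgam had 0 reads in albiflorin libraries and 1 in RANKL libraries, and whether its reads were assigned to another row was not tested. The 10 osteoclast markers summed to 186 to 196 CPM for albiflorin and 194 to 208 CPM for RANKL, with Acp5 called higher and Nfatc1 lower, Calcr at 0 and Ctsk at 30 reads over the albiflorin and 20 over the RANKL libraries. Most of that sum was Nfatc1, which averaged 122 CPM for albiflorin and 143 CPM for RANKL. Among the 7 tested, Nfatc1 and Itgb3 had negative log2 fold changes. Acp5, Mmp9, Dcstamp, Ocstamp and Atp6v0d2 had positive ones, and the median of the 7 was 0.29. The mRNAs of Acp5, Cd14 and Nfatc1 have 1447, 1641 and 4505 nucleotides. Of all tested genes with 1000 to 2000 nucleotides, 29.7% were called higher, and of those with 4000 to 8000, 28.7% were called lower. Adgre1, at 3238 nucleotides, stayed called with the length trend removed. For Acp5, Cd14 and Nfatc1 the part of mRNA length in the difference was not tested. Lymphocyte markers, relevant since Rgs1 is abundant in B cells, summed to 0.989 to 1.55 CPM for albiflorin and 1.03 to 1.59 CPM for RANKL, with Cd3e, Cd8a and Ms4a1 at 0 in all 6 libraries. Stromal markers summed to 2.23 to 3.17 CPM for albiflorin and 2.97 to 4.59 CPM for RANKL. The part of the macrophage, osteoclast and stromal markers in the Rgs values was not tested.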

How the data were processed

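Whole-number read counts per gene and FPKM values for the 6 libraries were used as deposited by the authors. The submitters' processing notes name DESeq2 1.42.0, featureCounts 2.0.6-p3, HISAT2 2.2.1, fastp and CASAVA 1.8 with no role for each. Neither the genome build nor the use of strand is given in the sources used here. Identifiers of genes carry a C57BL/6NJ prefix, and positions of genes are those of the deposited table. The deposited FPKM equal counts over listed gene length and over a library total that differs from the column total by -0.95% to 1.65%. Counts were tested with edgeR 4.0.16 (R 4.3.3): filterByExpr, TMM scaling, a quasi-likelihood test on group alone and Benjamini-Hochberg adjustment, calling adjusted p under 0.05. SE was taken from the size of the log2 fold change over the root of its F statistic. CPM use TMM-scaled library sizes. Samples were grouped by title. Alternatives were RLE scaling, DESeq2 1.42.0, limma-voom (limma 3.58.1), other filters, a replicate block, leaving out each library, log2(FPKM + 1), log2(FPKM + 0.1) and removal of the lowess trend (span 0.3) with listed gene length or, added after seeing the data, with mRNA length of the principal GENCODE M21 transcript (found for 79.4% of tested genes, the listed length otherwise). The code was tested on simulated data. Replicate libraries differed by 3.77 to 9.15 times the sampling noise (chi-square per degree of freedom), so none was counted as a duplicate. The members and lists were chosen with earlier results of these data known. The genes named are the members, the other Rgs rows, up to 4 called genes of smallest p from each other list, 11 genes taken whatever their result, and the 5 most like Rgs1 and, since no member fell, the 5 most like the lowest, Rgs14. Some genes that this rule takes are not reported here. Any other was chosen after its values were seen.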

Additional observations from a re-analysis of the deposited data

How the results depend on the processing

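Under the 16 alternatives, 3 Rgs members were called higher in 7, 2 in 8 and 1, with the mRNA-length trend removed, in the last; none was called lower in any. Rgs1 was called in 16 of 16 (log2 fold change 0.83 to 1.26), Rgs10 in 15 (0.09 to 0.54) and Rgs19 in 7 (0.04 to 0.30). The uncalled Rgs14 turned to -0.00985, -0.00365 and -0.00216 without albiflorin replicate 1, albiflorin replicate 3 and RANKL replicate 1, to -0.0903 with the gene-length and to -0.0491 with the mRNA-length trend removed; Rgs16 turned to -0.00979 without albiflorin replicate 1 and Rgs12 to -0.0794 without albiflorin replicate 2. Over the fits that leave out 1 library, Rgs12 reached at most 0.191, Rgs14 at most 0.0486 and Rgs16 at most 0.486. The cause was not tested. Rgs12 and Rgs16 gave no value under the stricter filter, nor Rgs16 an adjusted p with DESeq2. Over all genes, 1631 were higher and 1496 lower. Leaving out 1 library gave 984 to 1753 higher and 914 to 1644 lower: 984 and 977 without albiflorin replicate 1, 1025 higher without albiflorin replicate 2, and 1010 and 914 without RANKL replicate 2. With 1 trend removed there were 945 higher (gene length), or 644 higher and 735 lower (mRNA length), and on FPKM 901 (pseudocount 1) or 909 (pseudocount 0.1) lower. Pathway genes called lower were 6 with the mRNA-length trend removed, and 13 to 19 without 1 library; those called higher were 5 to 8. Same-numbered libraries of the groups deviated together with correlations of 0.10, -0.13 and -0.21, and differently numbered ones with -0.11 to 0.22. Deviations from the mean of only 3 libraries per group cannot show whether the numbers pair samples. With the replicate block, 1358 genes were higher and 1214 lower. Of the members, 2 were then called higher, Rgs19 being lost at 0.23. Depth limits Rgs16 and Rgs18, whose libraries held 0 to 31 reads. Strand use is unknown, so reads of antisense neighbours cannot be told apart.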

Other observations

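No symbol-matched member had a negative log2 fold change; the lowest was Rgs14, at 0.02. The 5 genes whose log2 CPM followed Rgs14 most closely over the 6 libraries were Cecr5 (Pearson r 0.986), Btbd6 (0.979), Klf11 (0.974), Ppil2 (0.965) and Ccrl2 (0.955), all with log2 fold changes between 0.04 and 0.15. Like Rgs14, each was lowest in albiflorin library 2 of its group. These values describe 6 libraries and were given no test.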
